A study of Mus musculus with 4 samples.

Results

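The 9 genes described here are the mouse isocitrate dehydrogenases Idh1, Idh2, Idh3a, Idh3b and Idh3g, the 2-hydroxyglutarate dehydrogenase D2hgdh, and the DNA dioxygenases Tet1, Tet2 and Tet3. They were taken by symbol from the 31053 genes of the deposited single-cell tables, and were chosen with earlier results of these data known. The study profiled cells from brain tumours of C57BL/6 mice that were labelled wtIDH1 or mIDH1, with 2 libraries in each group. All 4 libraries are labelled as tumour-infiltrating immune cells taken at the symptomatic stage. The labels give no substitution for mIDH1, no species for the mutant gene, no other tumour driver, no age, and no gate used to collect the cells. They also do not say whether the 2 libraries of a group came from separate animals, so p-values here measure only the spread between these libraries. With 2 libraries against 2, an exact permutation test of a lone value cannot go below p = 0.333.

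Isocitrate dehydrogenases turn isocitrate into 2-oxoglutarate. Idh1 works in the cytosol and peroxisomes and Idh2 in mitochondria, both with NADP, while Idh3a, Idh3b and Idh3g form the NAD-dependent enzyme of the tricarboxylic acid cycle. In gliomas, IDH1 is commonly mutated at an arginine of its active site, and the mutant enzyme reduces 2-oxoglutarate to D-2-hydroxyglutarate. D2hgdh oxidises that product back to 2-oxoglutarate, and the Tet enzymes, which oxidise 5-methylcytosine with 2-oxoglutarate as co-substrate, are among the dioxygenases that 2-hydroxyglutarate can inhibit.

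The stretch of the Idh1 transcript around the arginine codon that is recurrently mutated in human gliomas is shown because a count per gene cannot tell a transcript that carries such a change from one that does not. The codon is in capitals, and the sequence is 51 bases of spliced GENCODE transcript (GRCm38), written 5′ to 3′. The Idh1 stretch lies on the minus strand at chr1:65168599-65171003, in exons 3 and 4 of 9.
Idh1: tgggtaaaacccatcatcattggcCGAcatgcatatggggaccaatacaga
The codon ends 1698 bases before the 3′ end of the Idh1 transcript model. Which transcript end the libraries read is not given in the sources used here, and every Idh1 value below counts UMIs assigned to the mouse gene. Whether transcripts of the mutant gene are among them is not known, since the labels do not give its species.

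The genes sit at single loci of GRCm38: Idh1 on chromosome 1 (65158616 to 65186500), Idh2 on 7 (80094846 to 80115392), Idh3a on 9 (54586334 to 54604661), Idh3b on 2 (130279309 to 130284547) and Idh3g on X (73778963 to 73786897). D2hgdh lies on chromosome 1 (93824909 to 93852348), Tet1 on 10 (62804570 to 62908996), Tet2 on 3 (133463679 to 133545139) and Tet3 on 6 (83362373 to 83459084).

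The libraries held 3701 to 4708 barcodes and 20908476 to 29849183 UMIs (molecules counted once), of which 2980 to 3653 cells were kept, and 6 to 25 barcodes were shared between any pair of libraries. Median UMIs per kept cell were 4959 and 4869 in wtIDH1 and 3371 and 2700 in mIDH1. Each cell was placed in a class by panels of 10 marker genes that hold none of the 9 genes. In the order wtIDH1 1, wtIDH1 2, mIDH1 1 and mIDH1 2, the classes held 49, 88, 400 and 1030 neutrophil-like cells, 610, 318, 326 and 415 monocyte-like cells, 654, 1039, 711 and 332 macrophage-like cells, 450, 418, 528 and 248 T-like cells, and 273, 173, 93 and 136 NK-like cells. Of the 2736 macrophage-like cells, 899 had under 1500 UMIs and 486 held 3 or more microglia markers, and calls lost among macrophage-like cells of 2000 or more UMIs without 3 microglia markers are named. Levels are UMIs of a gene per 1000000 UMIs (CPM) of a class in a library, and fold changes come from edgeR on the same sums, scaled by trimmed means.

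Among the leukocytes of the plot, Idh1 was highest in macrophage-like and monocyte-like cells and lowest in T-like and NK-like cells; the Nes/Sox2 cells described further on, with a mean of 66.2 CPM, lay between the 2 highest. Macrophage-like cells gave 62.3 and 87.1 CPM in wtIDH1 and 97.9 and 86.1 CPM in mIDH1, a mean of 83.4 CPM ± 15.01 (SD, n = 4). Monocyte-like cells gave 42.2, 60.3, 50.4 and 41.0 CPM in the same order, all below every macrophage-like value of the same gene. T-like cells lay between 2.14 and 4.13 CPM, a level 2.45% to 4.79% of that of macrophage-like cells in the same library. The myeloid genes Apoe and Lyz2 stood in T-like cells at 0.236% to 1.20% and 0.368% to 2.13% of their macrophage-like levels, below the share of Idh1 in each library. Idh1 in T-like cells rested on 5 to 14 UMIs per library, and classes other than macrophage-like cells also held it. The part of stray RNA in its T-like level was not tested. After thinning to 1000 UMIs, which left out cells of fewer UMIs, 5.10% to 8.24% of macrophage-like cells and 0.219% to 0.414% of T-like cells held an Idh1 UMI. Over all cells before thinning the shares were 24.4% to 37.7% and 1.20% to 2.82%. Thinning kept 510 of 654, 839 of 1039, 545 of 711 and 258 of 332 macrophage-like cells. It kept 448 of 450, 417 of 418, 528 of 528 and 248 of 248 T-like cells, so the shares before and after rest on different cells. NK-like cells of mIDH1 2 reached 16.4 CPM against 1.99 to 7.91 CPM in the other libraries. That value came from 9 UMIs in 1.47% of the cells, and the summed tumour markers stood at 65.5 CPM in those cells against 2.64 to 4.69 CPM in the other NK-like sums; their part in the value was not tested.

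Against the mean of the other 4 tested classes, within libraries, 26 of 40 tests of the genes passed an adjusted p of 0.05. Of the 8 genes tested in each class, 6 passed in neutrophil-like cells (58.6% of all genes did), 4 in monocyte-like cells (49.3%), 5 in macrophage-like cells (56.8%), 6 in T-like cells (63.6%) and 5 in NK-like cells (47.7%). These shares are near the background, so the counts say nothing particular of the 9 genes, and what follows is the direction and size for each gene. Among all genes tested, 47.9% to 62.2% of the calls in a class were higher calls, and 23.6% to 73.5% were when libraries were scaled by their totals alone.

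Idh1 was higher in macrophage-like cells by 3.02 on the log2 scale (SE 0.16, edgeR adjusted p = 7.16e-14) and in monocyte-like cells by 2.17 (SE 0.17). It was lower in T-like cells (log2 fold change -3.18, SE 0.29, edgeR adjusted p = 1.36e-09) and in NK-like cells (-1.74, SE 0.36). In neutrophil-like cells the log2 fold change was -0.28 (SE 0.34, edgeR adjusted p = 0.497), on 1 to 15 UMIs per library. That value passed with library totals as the only scaling (-1.06, edgeR adjusted p = 0.0121) and changed sign without mIDH1 2 (0.27, edgeR adjusted p = 0.690) or with Leiden clusters as classes (0.50, 0.292). The Leiden classes did not hold the same cells as the gate. Their neutrophil class, a single cluster led by Ngp, Camp and Ltf, held 63 and 112 cells in wtIDH1 and 223 and 318 in mIDH1. A cluster of 1613 cells led by G0s2, F3, Acod1 and Retnlg was given no class. The Leiden macrophage class held 450 and 544 cells in wtIDH1 and 230 and 75 in mIDH1. Dendritic-like cells, too few to test in mIDH1 2, held 7.82 to 28.0 CPM, and microglia-like cells 18.6 to 31.5 CPM in the 3 libraries with enough cells. In the order of means over the leukocytes of the plot, the macrophage-like and monocyte-like ranges did not overlap, monocyte-like cells stood apart from the dendritic-like cells, and the dendritic-like, neutrophil-like, NK-like and T-like ranges each overlapped with the next.

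Idh2, the mitochondrial NADP-dependent enzyme, had a pattern like that of Idh1 among the leukocytes. Its macrophage-like levels were 57.5 and 75.8 CPM in wtIDH1 and 40.3 and 55.3 CPM in mIDH1. Monocyte-like cells followed at 14.2 to 29.7 CPM, without overlap with the macrophage-like values. Idh2 was higher in macrophage-like cells by 3.04 (log2, SE 0.20, edgeR adjusted p = 5.08e-12) and in monocyte-like cells by 1.18 (SE 0.24). It was lower in T-like cells (-0.96, SE 0.31), NK-like cells (-1.49, SE 0.46) and neutrophil-like cells (-1.76, SE 0.53, edgeR adjusted p = 0.00669), where wtIDH1 1 and mIDH1 1 held 0 UMIs. A count of 0 allows up to 30.1 CPM in wtIDH1 1 and 3.31 CPM in mIDH1 1. The T-like call was lost without wtIDH1 2 (-0.66, edgeR adjusted p = 0.117), with library totals as the only scaling (-0.60, 0.0966) or with at most 5% mitochondrial UMIs (-0.46, 0.267), and the NK-like call without wtIDH1 1 (-1.34, 0.0642), without mIDH1 2 (-1.23, 0.0734) or with either of those settings (-1.04, 0.0724 and -1.12, 0.108). The neutrophil-like call was lost without mIDH1 1 (-1.34, edgeR adjusted p = 0.0519) or with Leiden clusters as classes (-1.10, 0.0527), with which the macrophage-like value was 1.98 and the monocyte-like value 0.75.

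**Figure D1:**
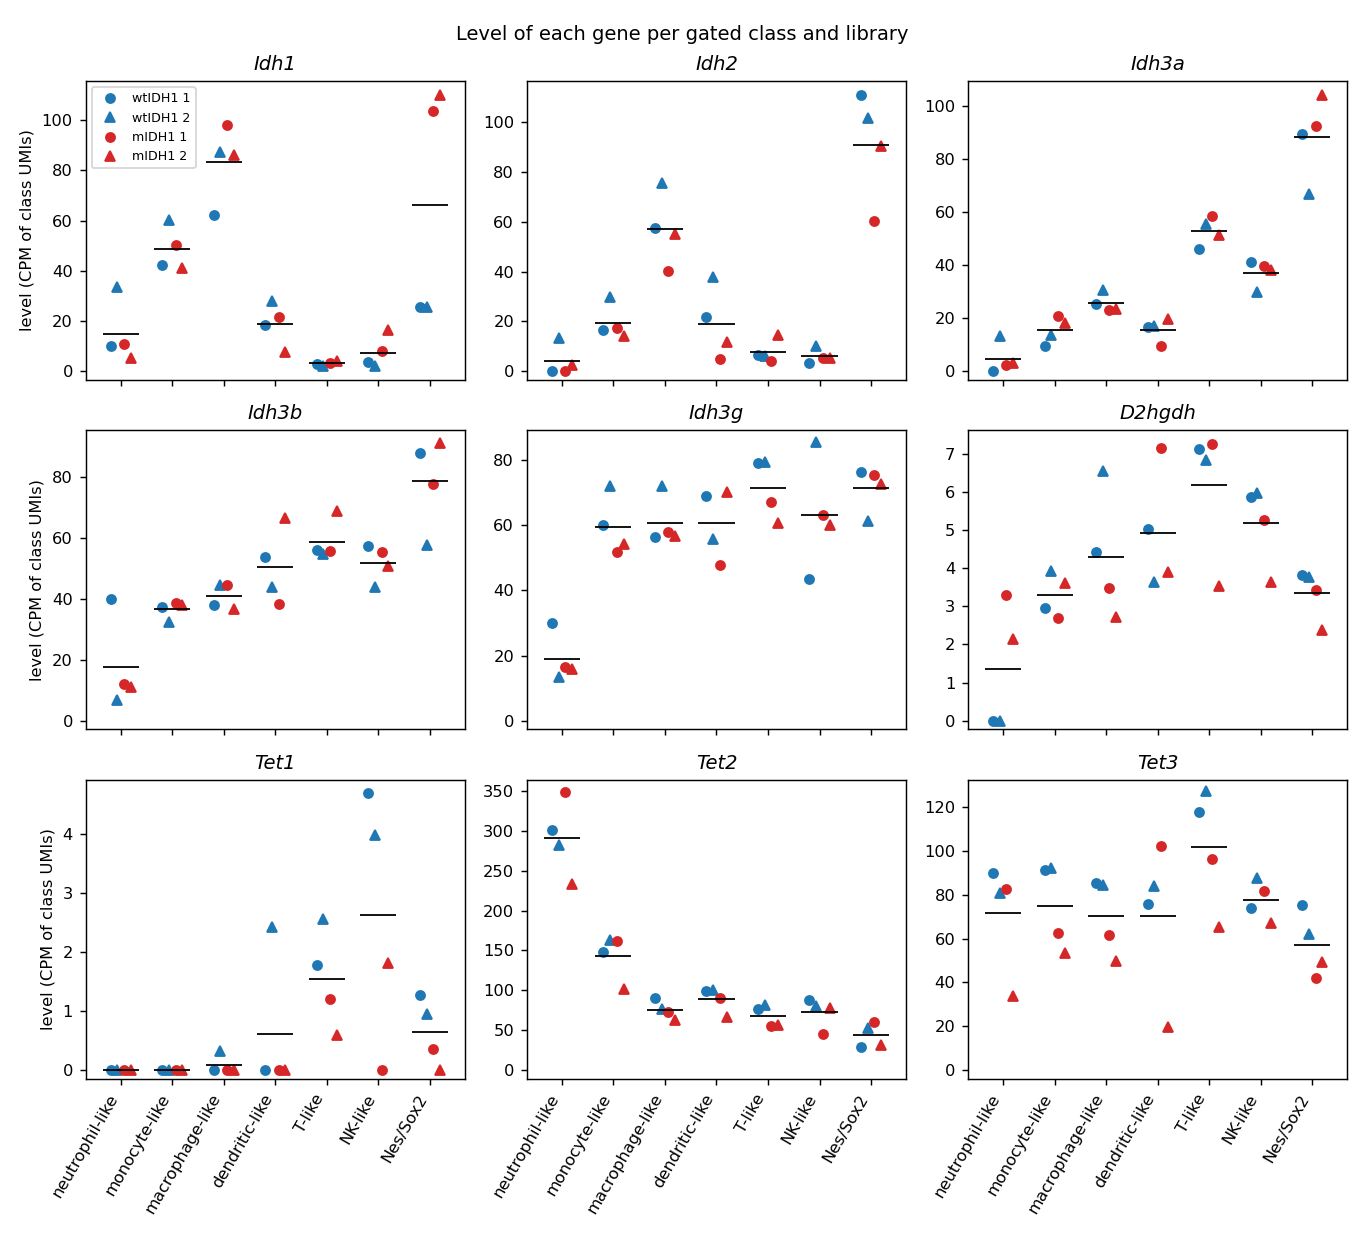
Level (CPM of the UMIs summed per class) of each of the 9 genes in 6 gated immune classes and in the Nes/Sox2 cells; points are libraries (blue wtIDH1, red mIDH1, circle replicate 1, triangle replicate 2), lines are means of 4 libraries, and each panel has its own linear axis. Among the leukocytes Idh1 and Idh2 are highest in macrophage-like cells, Idh3a in T-like cells and Tet2 in neutrophil-like cells, and in the Nes/Sox2 column of Idh1 the mIDH1 points (104 and 110 CPM) stand above the wtIDH1 points (25.5 CPM each).

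The 3 subunits of the NAD-dependent enzyme had another order. Idh3a, the catalytic subunit, was highest among the leukocytes in T-like cells, at 46.0 and 55.6 CPM in wtIDH1 and 58.6 and 51.3 CPM in mIDH1. NK-like cells held 29.9 to 41.1 CPM, below every T-like value, macrophage-like cells 23.0 to 30.5 CPM and neutrophil-like cells 0 to 13.5 CPM. Idh3a was higher in T-like cells by 1.47 (log2, SE 0.16, edgeR adjusted p = 3.77e-08), in NK-like cells by 0.79 (SE 0.23) and in macrophage-like cells by 0.47 (SE 0.17), and lower in neutrophil-like cells (-2.37, SE 0.37). The macrophage-like call was lost without wtIDH1 1 (edgeR adjusted p = 0.0795), without wtIDH1 2 (0.108) or with Leiden clusters as classes (log2 0.10, 0.693), and the NK-like call without wtIDH1 1 (0.100).

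Among the classes of the plot, Idh3b and Idh3g, the partners of Idh3a in the enzyme, were lowest in neutrophil-like cells. Among the leukocytes of the plot, Idh3b means ran from 36.6 CPM ± 2.84 (SD, n = 4) in monocyte-like cells to 58.8 CPM ± 6.77 (SD, n = 4) in T-like cells, with neutrophil-like cells below at 17.5 CPM ± 15.2 (SD, n = 4). Idh3g means ran from 59.6 to 71.6 CPM in every class of the plot except neutrophil-like cells, whose 13.5 to 30.1 CPM did not overlap with the monocyte-like values of 51.7 to 72.1 CPM. Both were lower in neutrophil-like cells, Idh3b by a log2 fold change of -1.14 (SE 0.21) and Idh3g by -1.06 (SE 0.19, edgeR adjusted p = 4.78e-05), beside a median of -0.23 over all genes there. Both were higher in T-like cells, Idh3b by 0.55 (SE 0.12) and Idh3g by 0.35 (SE 0.11), and Idh3g also in macrophage-like (0.34, SE 0.11) and monocyte-like cells (0.42, SE 0.11). The Idh3g call in T-like cells was lost without wtIDH1 1 (edgeR adjusted p = 0.130) or mIDH1 1 (0.109). The one in macrophage-like cells was lost without mIDH1 1 (0.116), with Leiden clusters (log2 0.13, edgeR adjusted p = 0.334) or without the shallow and microglia-marked cells (0.27, 0.0532), and the one in monocyte-like cells with Leiden clusters (0.23, 0.0711). With library totals the T-like values were 0.90 for Idh3b and 0.70 for Idh3g and the neutrophil-like values -1.94 and -1.84, and their direction did not change.

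Over the classes of the plot, D2hgdh means ran from 1.36 CPM in neutrophil-like to 6.19 CPM ± 1.78 (SD, n = 4) in T-like cells. None of its 5 class tests passed with edgeR, 0 of the 5 had an unadjusted p under 0.05, and DESeq2 also called none, while 1 of the 5 was called with library totals and 1 with a gate of 4 or more markers. Neutrophil-like cells of the wtIDH1 libraries held 0 UMIs, which allows up to 30.1 and 20.2 CPM, so its level there could not be set against the 3.31 and 2.15 CPM of the mIDH1 libraries.

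Tet1 was near the limit of detection and was tested in no class with the default filter on low counts. Without that filter, 2 of its tests between classes passed, on the few UMIs given below. No Tet1 UMI was found in the 1669 monocyte-like cells, which allows up to 0.207 CPM and a UMI in up to 0.180% of cells, or in the 1567 neutrophil-like cells, which allows up to 0.760 CPM. T-like cells held 1.78 and 2.56 CPM in wtIDH1 and 1.21 and 0.589 CPM in mIDH1, on 1 to 6 UMIs each. NK-like cells held 0 to 4.69 CPM on at most 4 UMIs.

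Tet2, which clonal haematopoiesis and myeloid malignancies often hit, was highest in neutrophil-like cells. These gave 301 and 282 CPM in wtIDH1 and 349 and 233 CPM in mIDH1, a mean of 291 CPM ± 47.9 (SD, n = 4). Monocyte-like cells held 147, 164, 162 and 101 CPM, below every neutrophil-like value, and the lowest of them lay just above the highest dendritic-like value (101.4 against 100.9 CPM). The macrophage-like, NK-like and T-like means of 75.2, 72.7 and 67.4 CPM overlapped in their ranges. After thinning to 1000 UMIs, which left out 0 to 22 neutrophil-like cells per library, 22.1% to 28.9% of neutrophil-like cells and 6.13% to 8.67% of T-like cells held a Tet2 UMI, against 34.1% to 47.5% and 32.1% to 33.6% before thinning. Median UMIs per cell were 1552 to 2383 in the first class and 4018 to 5727 in the second.

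Tet2 was higher in neutrophil-like cells by 2.40 on the log2 scale (SE 0.15, edgeR adjusted p = 1.16e-12) and in monocyte-like cells by 0.58 (SE 0.14). It was lower in macrophage-like (-0.69, SE 0.15), T-like (-1.19, SE 0.16) and NK-like cells (-1.09, SE 0.18). All 5 Tet2 calls held under the 13 other settings tried, though with Leiden clusters the neutrophil-like value was 1.29.

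Tet3 means among leukocytes ran from 70.4 CPM ± 17.6 (SD, n = 4) in macrophage-like to 102 CPM ± 27.5 (SD, n = 4) in T-like cells, and every class of the plot overlapped with the next. Its calls in neutrophil-like cells (0.39, SE 0.15, edgeR adjusted p = 0.0259) and NK-like cells (-0.41, SE 0.14, edgeR adjusted p = 0.0179) changed sign when libraries were scaled by their totals alone (-0.27 and 0.00). The neutrophil-like call held under 3 of 13 settings and was lost, among others, without mIDH1 1 (0.14, edgeR adjusted p = 0.598), without mIDH1 2 (0.46, 0.0564) and with DESeq2 (0.23, 0.180). The NK-like call held under 5 of 13 and was lost, among others, with DESeq2 (-0.29, adjusted p = 0.0710) and without wtIDH1 1 (-0.31, edgeR adjusted p = 0.176), wtIDH1 2 (-0.37, 0.0968) or mIDH1 1 (-0.43, 0.0586).

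**Figure D2:**
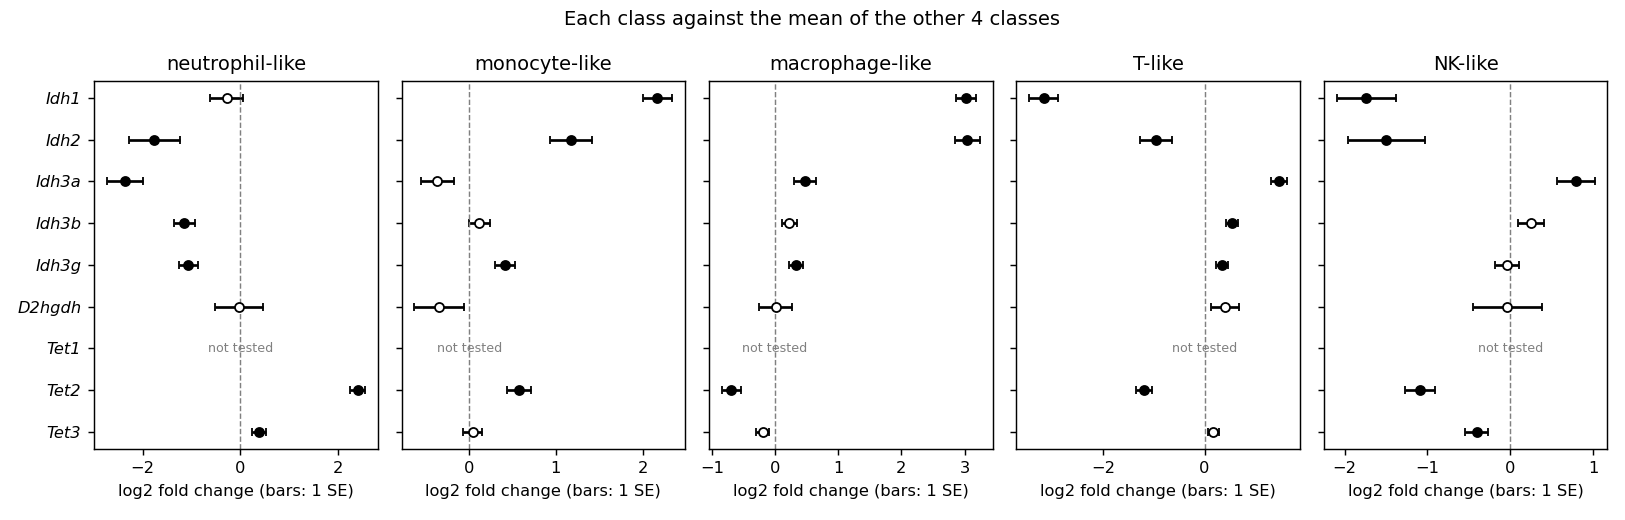
Log2 fold change of each gene in 1 class against the mean of the other 4 tested classes (edgeR, library as a block, n = 4 libraries; bars are 1 SE; filled points have an adjusted p under 0.05). Idh1 and Idh2 lie right of 0 in macrophage-like and monocyte-like cells and left of it in T-like and NK-like cells, while Tet2 lies at 2.40 in neutrophil-like cells and left of 0 in macrophage-like, T-like and NK-like cells.

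The genes whose levels were most like those of a member were sought over the 20 sums of 5 classes in 4 libraries. The search was among 6134 genes with a mean of 20 CPM or more, and Idh2, D2hgdh and Tet1 were below that mean. Gate markers and predicted genes (Gm or Rik names) were left out of the ranking. For Idh1 the most alike were Lamp1, a lysosomal membrane protein (Pearson r = 0.937), Rin2 (0.934) and Tbxas1, thromboxane synthase (0.922). For Tet2 they were Csrnp1 (0.966), Ccnl1 (0.951) and the kinase Pim1 (0.950). For Idh3a they were Acbd6 (0.974), Chordc1 (0.969) and the RNA-binding protein Lsm4 (0.969). Idh3b was most like Lars (0.956), Commd2 (0.954) and Rbm28 (0.949), and Idh3g most like the translation initiation factors Eif3c (0.959) and Eif3e (0.948) and the proteasome subunit Psmc3 (0.948). Tet3 had the lowest values of those listed, 0.889 with Sod1, 0.887 with Cdipt and 0.883 with Rpe. These r describe sums that share cells, depth and 4 libraries.

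Between mIDH1 and wtIDH1 libraries, 1 of 30 tests of the genes within the 5 immune classes passed with edgeR, Idh3a in monocyte-like cells. DESeq2 called none of them. An unadjusted p under 0.05 was given to 4 of the 30, 2 of 8 in macrophage-like and 2 of 8 in monocyte-like cells. Of all genes, 2998 of 10871 and 2977 of 9621 had such a p in these classes. Among all genes tested, 15.2% passed in monocyte-like cells, 8.92% in macrophage-like cells, 6.45% in NK-like cells, 4.0% in T-like cells and 2.22% in neutrophil-like cells. The direction of those calls depended on the scaling. Macrophage-like cells had 687 higher and 283 lower calls with trimmed means, and 547 higher and 967 lower with library totals, which put the median of all genes at -0.22. Higher calls made up 63.2% to 81.3% of the calls of a class with trimmed means, 70.8% to 90.6% with DESeq2 and 21.6% to 36.1% with totals, and the medians with totals were -0.42 to -0.22 across the 5 classes.

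Idh3a in monocyte-like cells stood at 9.45 and 13.6 CPM in wtIDH1 and at 21.0 and 18.1 CPM in mIDH1, on 31 to 70 UMIs each, so the groups did not overlap, as was so for 19.9% of all genes tested there in this direction. It was higher in mIDH1 by 1.02 on the log2 scale (SE 0.28, edgeR adjusted p = 0.0231). The call was lost without wtIDH1 1 (log2 0.77, edgeR adjusted p = 0.255), without mIDH1 2 (1.03, 0.0963), with totals (0.81, 0.0653), with DESeq2 (1.02, adjusted p = 0.113) and with Leiden clusters as classes (0.17, 0.797). In the same sums the neutrophil and monocyte gene S100a8 stood at 68.4 and 90.5 CPM in wtIDH1 and at 814 and 1108 CPM in mIDH1, and the microglia panel at 262 and 238 against 118 and 81.5 CPM; their part in this result and in the list counts of monocyte-like cells below was not tested. In T-like cells Idh3a gave 0.37 (SE 0.18, edgeR adjusted p = 0.246).

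Idh1 in macrophage-like cells gave 0.52 (SE 0.17, edgeR adjusted p = 0.106), and its libraries overlapped, since wtIDH1 2 at 87.1 CPM stood above mIDH1 2 at 86.1 CPM. It passed without wtIDH1 2 (0.76, edgeR adjusted p = 0.0354), without a filter on low counts (0.47, 0.0320) and with a block of crossed replicate numbers (0.53, 0.0432). In the macrophage-like sums the tumour panel stood at 4.21 and 21.8 CPM in wtIDH1 and at 59.4 and 15.9 CPM in mIDH1. The monocyte panel stood at 2505 and 1899 against 3754 and 6564 CPM, and S100a8 at 123 and 99.9 against 908 and 1190 CPM. Their part in the macrophage-like values between genotypes, and in the difference from Nes/Sox2 cells below, was not tested. In monocyte-like cells the wtIDH1 range of Idh1, 42.2 to 60.3 CPM, overlapped with the mIDH1 range of 41.0 to 50.4 CPM. Idh1 was too sparse to test in T-like, NK-like and neutrophil-like cells. Idh2, Idh3b, Idh3g and D2hgdh passed in none of the classes in which edgeR tested them, and none of their tests had an unadjusted p under 0.05. In T-like cells the log2 fold changes were 0.67 for Idh2 (SE 0.61, edgeR adjusted p = 0.558) and 0.41 for Idh3b (SE 0.20, edgeR adjusted p = 0.255). Without mIDH1 1 both passed, Idh2 at 1.57 (edgeR adjusted p = 0.0446) and Idh3b at 0.65 (0.0402), while without mIDH1 2 they were -0.42 (0.775) and 0.18 (0.647).

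Tet3 was lower in both mIDH1 libraries than in both wtIDH1 libraries in macrophage-like cells (61.6 and 49.9 against 85.7 and 84.4 CPM), monocyte-like cells (62.6 and 53.7 against 91.5 and 92.2 CPM) and T-like cells (96.6 and 65.4 against 118 and 127 CPM). So were 47.6%, 42.6% and 47.2% of all genes tested in these classes, a background under which such a count is no result about Tet3. In NK-like and neutrophil-like cells, where Tet3 overlapped, 40.4% and 41.1% of genes were lower in both mIDH1 libraries, and the share higher in both was 14.9%, 15.8%, 18.4% and 12.4% in NK-like, T-like, macrophage-like and neutrophil-like cells. With trimmed means the log2 fold changes were -0.38 in macrophage-like cells (SE 0.13, edgeR adjusted p = 0.125) and -0.46 in monocyte-like cells (SE 0.19, edgeR adjusted p = 0.115). Both passed with library totals (-0.59 and -0.66, edgeR adjusted p = 0.0397 and 0.0371), and the monocyte-like one also with a gate lead of 1 (-0.60, 0.0302). Tet2 in neutrophil-like cells gave 0.38 (SE 0.29, edgeR adjusted p = 0.507), a value that was -0.02 with library totals and -0.12 with Leiden clusters.

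**Figure D3:**
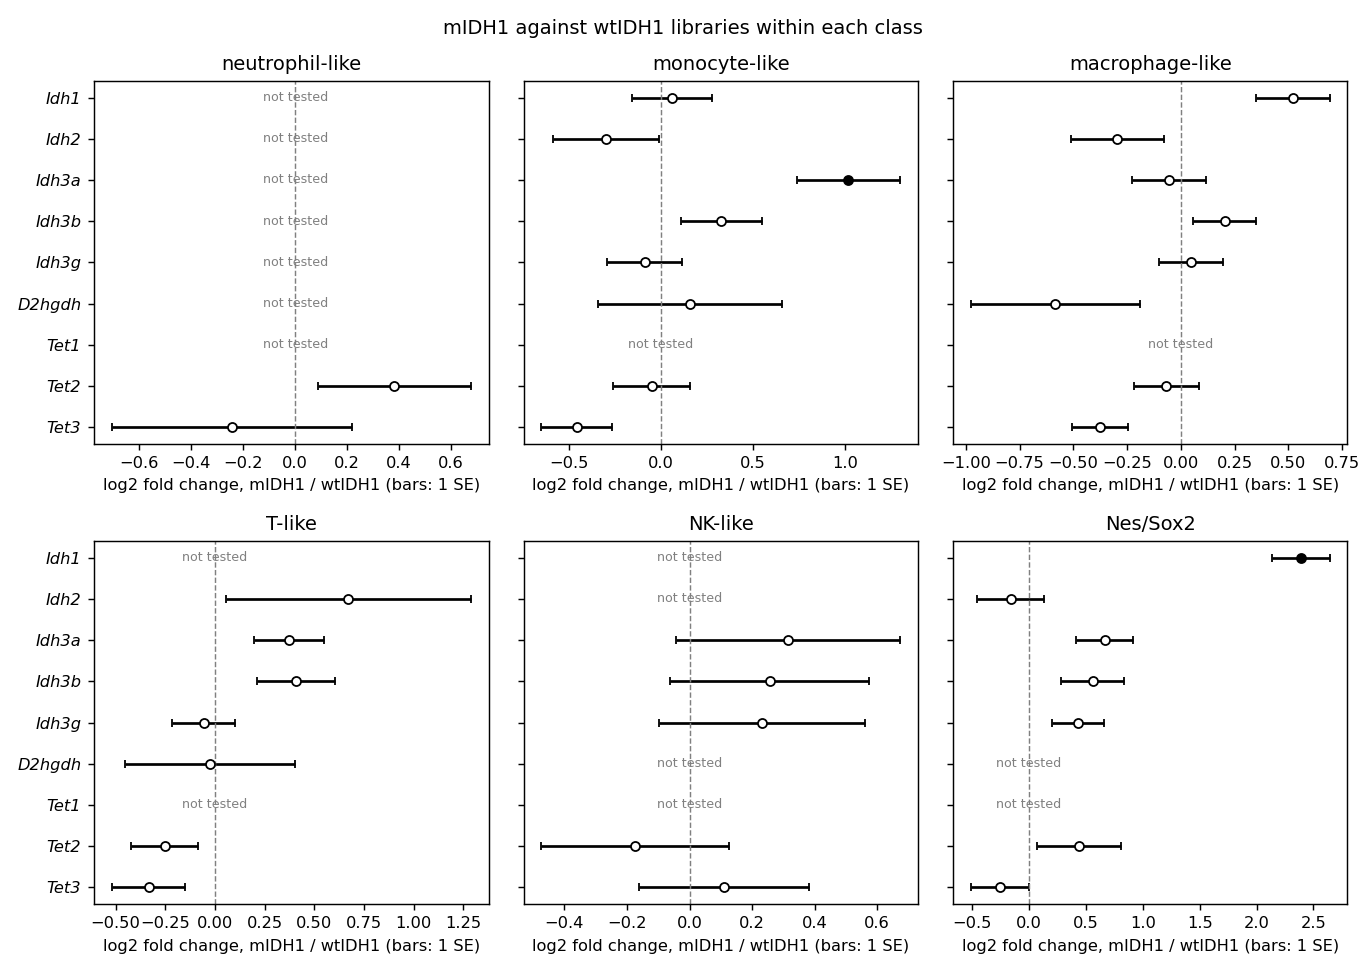
Log2 fold change of each gene in mIDH1 against wtIDH1 libraries within 5 immune classes and in the Nes/Sox2 cells (edgeR, n = 2 libraries per group; bars are 1 SE; filled points have an adjusted p under 0.05; each panel has its own axis). Filled points are Idh3a in monocyte-like cells at 1.02 and Idh1 in Nes/Sox2 cells at 2.39.

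An interaction term asked whether the effect of mIDH1 was unequal in the neutrophil-like and the macrophage-like class. None of 8 genes passed with edgeR (1.14% of all genes did), and DESeq2 also called none. An unadjusted p under 0.05 was given to 1, beside 1297 of 10329 of all genes. Only Tet2 and Tet3 had enough counts to be tested within neutrophil-like cells, so the lack of calls says little about the others. Tet2 gave 0.99 (SE 0.39, edgeR adjusted p = 0.201), beside a median of 0.59 over all genes in this fit, which had 91 higher and 27 lower calls against 16 and 31 with DESeq2 and 14 and 102 with library totals. Idh1 gave -1.18 (SE 0.81, edgeR adjusted p = 0.572), on 1 and 5 UMIs in the neutrophil-like cells of wtIDH1. In a simulation of the neutrophil-like comparison, 6% of genes changed by 2-fold and 54% of genes changed by 4-fold were found, against 70% and 91% in the macrophage-like comparison. That simulation was of the comparisons within a class and did not cover the interaction.

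Cells with tumour markers were few. The marker panel led by Nes and Sox2, stem and glial progenitor genes, placed 2, 5, 8 and 4 cells, too few for a level. A wider gate, chosen after the data were seen, took cells with 2 or more UMIs of Nes and Sox2 together and more of them than of the leukocyte gene Ptprc. It held 44 and 50 cells in wtIDH1 and 136 and 90 cells in mIDH1, which carry a label of immune cells. Their summed tumour markers, which include Nes and Sox2, stood at 511 to 939 CPM. Ptprc stood at 3.61 to 8.49 CPM, against 378 to 632 CPM in macrophage-like cells. The gate itself used Nes, Sox2 and Ptprc, so these levels describe the gate and are no separate evidence of what the cells are. Oligodendrocyte markers summed to 1787 and 18.9 CPM in wtIDH1 and to 464 and 6.22 CPM in mIDH1, and tumour cells cannot be told apart from other Nes or Sox2 cells of the brain. Median UMIs per cell were 7670 and 18532 in wtIDH1 and 39361 and 35061 in mIDH1.

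Idh1 was higher in the Nes/Sox2 cells of mIDH1. The wtIDH1 libraries held 20 and 27 Idh1 UMIs, or 25.5 and 25.5 CPM (95% Poisson intervals 15.6 to 39.4 and 16.8 to 37.1). The mIDH1 libraries held 574 and 372 UMIs, or 104 and 110 CPM (95.4 to 113 and 99.2 to 122). The groups did not overlap, and 16.5% of all genes tested were likewise higher in both mIDH1 libraries. The log2 fold change was 2.39 (SE 0.25, edgeR adjusted p = 0.00935), and Idh1 was the lone call among 7 members tested, beside 6.50% of all genes (373 higher and 292 lower, or 273 and 781 with library totals). Within the same libraries, macrophage-like cells held 62.3 and 87.1 CPM of Idh1 in wtIDH1 and 97.9 and 86.1 CPM in mIDH1. Nes/Sox2 cells thus lay below macrophage-like cells in wtIDH1. In mIDH1 they lay above, but the 95% Poisson intervals overlapped (macrophage-like 90.1 to 106 and 74.3 to 99.3 CPM). Without the shallow and microglia-marked cells, macrophage-like cells held 58.5 and 87.9 CPM in wtIDH1 and 104 and 100 CPM in mIDH1. Nes/Sox2 cells of mIDH1 1 then did not lie above them (103.7 against 104.0 CPM). The difference between the mIDH1 effects in Nes/Sox2 cells and in macrophage-like cells was 1.90 (SE 0.29, edgeR adjusted p = 0.0160, passed by 1.68% of all genes).

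Depth moved with the genotype in these cells. Among cells of 10000 or more UMIs (20, 30, 117 and 82 cells), the log2 fold change of Idh1 was 2.35 (SE 0.26, edgeR adjusted p = 0.0130). After thinning to 1000 UMIs, an Idh1 UMI was held by 1.61% and 3.08% of wtIDH1 cells and by 10.2% and 12.6% of mIDH1 cells, against 18.2%, 28.0%, 82.4% and 85.6% before. Without wtIDH1 2 the value was 2.41 and the call was lost (edgeR adjusted p = 0.0606). The difference from macrophage-like cells was not called without mIDH1 1 (2.07, edgeR adjusted p = 0.0834) or without mIDH1 2 (1.74, 0.0970). Panels of other cell types also moved with the genotype in these sums. Endothelial markers summed to 241 and 363 CPM in wtIDH1 and to 95.4 and 66.9 CPM in mIDH1, microglia markers to 296 and 726 against 160 and 184 CPM, and NK markers to 108 and 177 against 39.2 and 61.9 CPM. The tumour panel stood at 699 and 939 against 576 and 511 CPM, and S100a8 at 0 and 0.943 against 19.0 and 51.8 CPM. Their part in the Idh1 result was not tested. Whether the added Idh1 UMIs came from mutant or wild-type transcripts cannot be told apart in counts per gene.

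The other members tested in these cells did not pass. In the simulation of this comparison, 20% of genes changed by 2-fold and 82% of genes changed by 4-fold were found. The lack of calls here, and in the lists below for these cells, thus says little about 2-fold changes. Idh2, with 111 and 102 CPM in wtIDH1 and 60.2 and 90.3 CPM in mIDH1, was lower in both mIDH1 libraries, as were 44.9% of all genes. Idh3a held 89.3 and 67.0 CPM in wtIDH1 and 92.3 and 104 CPM in mIDH1 (log2 0.67, SE 0.25, edgeR adjusted p = 0.144). Tet2 held 29.3 and 52.8 CPM in wtIDH1 and 60.4 and 31.7 CPM in mIDH1, which overlap. Tet3 held 75.3 and 62.3 CPM in wtIDH1 and 42.1 and 49.4 CPM in mIDH1, likewise lower in both. D2hgdh stood at 2.37 to 3.83 CPM and Tet1 at 0 to 1.28 CPM, on 0 to 2 Tet1 UMIs per library.

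**Figure D4:**
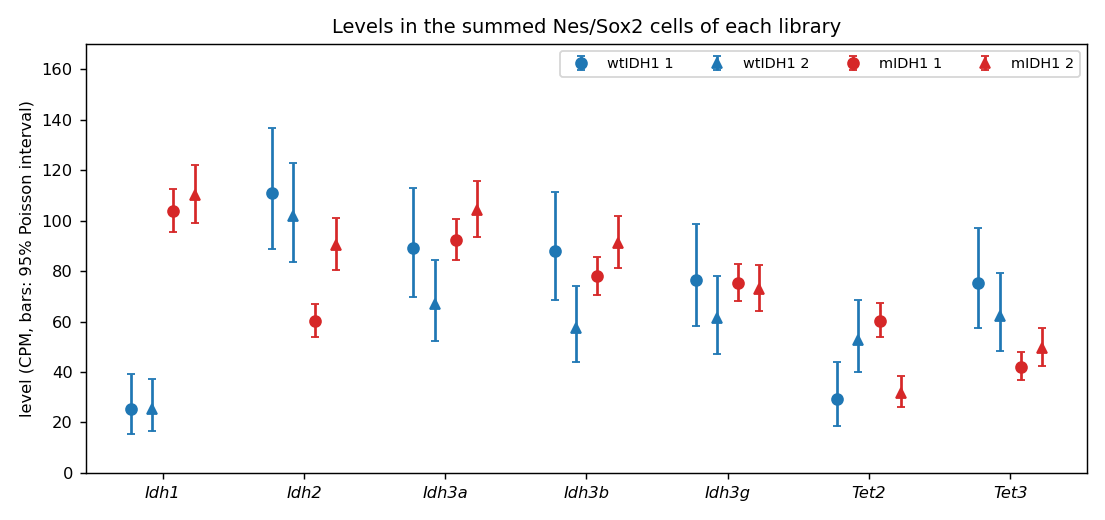
Level (CPM) of 7 of the genes in the summed Nes/Sox2 cells of each library (blue wtIDH1, red mIDH1; bars are 95% Poisson intervals, which cover counting error alone). For Idh1 the mIDH1 points at 104 and 110 CPM lie above the wtIDH1 points at 25.5 CPM; for Tet2 the points of the groups interleave.

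Other genes of 2-oxoglutarate metabolism and other 2-oxoglutarate-dependent enzymes were counted in 7 lists. In macrophage-like cells 9 of 91 tests of list genes passed, 8 of them higher in mIDH1, beside 8.92% of all genes. In monocyte-like cells 12 of 83 passed, also 8 of them higher, beside 15.2% of all genes. Both counts are near those shares and say nothing particular of the lists. NK-like cells had 2 of 68, beside 6.45%. DESeq2 called 7, 5 and 0 in these classes. T-like cells had 0 of 88 (4.0% of all genes) and neutrophil-like cells 0 of 48 (2.22%) with edgeR, and DESeq2 also called none. An unadjusted p under 0.05 was given to 16 and 8 of these list genes, beside 2188 of 9738 and 1026 of 5000 of all genes.

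Prolyl, lysyl and asparaginyl hydroxylases, which modify HIF and collagen, had 5 of 14 members higher in mIDH1 macrophage-like cells, 0 lower, and a list median of 0.39 beside -0.01 over all genes, of which 687 of 10871 were called higher and 283 lower (8.92%). In the same sums the monocyte panel stood at 2505 and 1899 CPM in wtIDH1 and at 3754 and 6564 CPM in mIDH1, S100a8 at 123 and 99.9 against 908 and 1190 CPM, and the erythroid panel at 2862 CPM in mIDH1 2 against 5.49 to 89.9 CPM in the other libraries. Their part in the list counts of macrophage-like cells was not tested. Egln3, a HIF prolyl hydroxylase that HIF itself induces, was higher by 2.01 (SE 0.19, edgeR adjusted p = 0.00460), the collagen hydroxylase subunit P4ha2 by 1.62 (SE 0.27) and Egln1, the main oxygen sensor of the HIF pathway, by 0.93 (SE 0.14). In monocyte-like cells 2 of 11 were higher, where 923 of all 9621 genes tested were, Egln3 by 1.67 (SE 0.22, edgeR adjusted p = 2.89e-04) and Jmjd6 by 0.79 (SE 0.20). In macrophage-like cells 4 passed without wtIDH1 1, 3 without wtIDH1 2, 1 with Leiden clusters, and 0 without mIDH1 1 and 0 without mIDH1 2. In monocyte-like cells Egln3 passed without each library in turn but not with Leiden clusters (0.81, edgeR adjusted p = 0.108), and Jmjd6 was lost without wtIDH1 1, wtIDH1 2 or mIDH1 2.

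Among the Jumonji histone demethylases, the macrophage-like cells had 2 of 16 higher and 1 lower, against 687 and 283 of the 10871 genes tested there (8.92%). The higher ones were the H3K4 demethylase Kdm5b (0.76, SE 0.13) and the H3K9 demethylase Kdm3a (0.67, SE 0.14), and the lower one was Kdm2b (-0.71, SE 0.15, edgeR adjusted p = 0.0374). In monocyte-like cells Kdm2b (-0.83, SE 0.25) and the H3K27 demethylase Kdm6a (-0.72, SE 0.23) were lower, and in NK-like cells Kdm6b (-0.84, SE 0.25, edgeR adjusted p = 0.0389). These were 2 of 16 and 1 of 15 tested, beside 15.2% and 6.45% of all genes called. List medians were -0.19 in macrophage-like and -0.18 in monocyte-like cells. No Jumonji call in macrophage-like cells was kept when any of the 4 libraries was left out, and with totals as the only scaling 0 were higher and 4 lower. Both monocyte-like calls were lost without wtIDH1 1 or mIDH1 2, Kdm6a also without wtIDH1 2, and Kdm6b in NK-like cells without wtIDH1 1, wtIDH1 2 or mIDH1 1.

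Of the other NADPH producing enzymes, 3 of 11 were higher in mIDH1 monocyte-like cells: the malic enzyme Me2 (1.29, SE 0.23, edgeR adjusted p = 0.00183), G6pdx, the entry enzyme of the pentose phosphate pathway (0.78, SE 0.21), and Mthfd2l (2.10, SE 0.58). Of all genes tested there 15.2% were called, 923 of 9621 higher and 538 lower. Me2 was also higher in macrophage-like cells (0.82, SE 0.20, edgeR adjusted p = 0.0495), 1 of 12 tested there, beside 8.92% of all genes. The monocyte-like call of Me2 held under all 15 other settings, those of G6pdx and Mthfd2l were lost without wtIDH1 1 or mIDH1 2, and the macrophage-like call of Me2 was lost without wtIDH1 2, mIDH1 1 or mIDH1 2.

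Of 10 DNA methylation writers and readers tested in monocyte-like cells, 2 were higher and 1 lower, beside 15.2% of all genes called. The de novo methyltransferase Dnmt3a was lower (-1.001, SE 0.23, edgeR adjusted p = 0.00962), and the MBD family genes Mbd2 (0.78, SE 0.22) and Mbd3 (0.68, SE 0.22) were higher. Mbd2 was also higher in NK-like cells (0.82, SE 0.22, edgeR adjusted p = 0.0241), 1 of 10 tested there, beside 6.45% of all genes. In the same monocyte-like cells 1 of 9 AlkB family genes tested, the RNA demethylase Fto, was lower (-0.80, SE 0.23, edgeR adjusted p = 0.0266). There 1 of 10 genes of 2-hydroxyglutarate and 2-oxoglutarate supply and removal, the serine synthesis enzyme Psat1, was higher (1.60, SE 0.42, edgeR adjusted p = 0.0185). Of these, Dnmt3a was lost without mIDH1 2 (-0.80, edgeR adjusted p = 0.0976), Psat1 without wtIDH1 1 or mIDH1 2, Mbd2 in monocyte-like cells without wtIDH1 2 or mIDH1 2 and in NK-like cells without wtIDH1 1 or wtIDH1 2, and Mbd3 and Fto without wtIDH1 1, wtIDH1 2 or mIDH1 2. In Nes/Sox2 cells 1 of 93 list genes passed, beside 6.50% of all genes. It was the O-GlcNAc transferase Ogt (-1.54, SE 0.24, edgeR adjusted p = 0.0218), which was lost without wtIDH1 2 (-1.34). None of the tricarboxylic acid cycle enzymes outside the isocitrate dehydrogenases, 12 to 16 tested per class, passed in any class with edgeR or with DESeq2. An unadjusted p under 0.05 was given to 1 of them in neutrophil-like, 2 each in NK-like, macrophage-like and monocyte-like, 3 in T-like and 5 in Nes/Sox2 cells. Of all genes, such a p was given to 1026 of 5000 in neutrophil-like, 1330 of 6476 in NK-like and 2998 of 10871 in macrophage-like cells. It was given to 2977 of 9621 in monocyte-like, 2188 of 9738 in T-like and 2672 of 10226 in Nes/Sox2 cells.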

How the data were processed

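Droplet libraries were deposited as raw UMI counts per gene and barcode. Per the labels' protocols, Cell Ranger 3.1 aligned reads to mm10 with STAR; the file headers name software 3.0.0. Whether the depth equalisation named in the labels touched these tables is not given in the sources used here. Cells with 200 or more genes and at most 10% mitochondrial UMIs were kept, and the top doublet scores (0.8% per 1000 barcodes) were removed, because the automatic call marked 0.0266% to 0.0982% of cells. A cell joined the class with the most detected markers of 10 (3 or more, lead of 2 or more) among 14 panels; 713 to 1402 cells per library stayed unassigned. UMIs were summed per library and class. edgeR 4.0.16 (quasi-likelihood, Benjamini-Hochberg over all genes, threshold 0.05) tested classes of 30 or more cells per library after its default filter on low counts; DESeq2 1.42.0 was an alternative. The tests were checked on simulated counts. Likeness used log2(CPM + 1). Poisson intervals and limits from a count of 0 (3 counts) cover counting error only. The 9 genes, the marker panels and the 7 lists were chosen with earlier results of these data known. Named list genes are at most 3 per list and class, past the threshold with the lowest p.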

Additional observations from a re-analysis of the deposited data

Results flagged for a closer look

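The mIDH1 effect on Idh1 differed between Nes/Sox2 cells and macrophage-like cells by 1.90 on the log2 scale (edgeR interaction, SE 0.29, adjusted p = 0.0160), a difference between cell classes under the same contrast. It was higher in Nes/Sox2 cells of both mIDH1 libraries than in those of both wtIDH1 libraries. The gate for these cells was chosen after the data were seen, and the part of depth, which was 7670 and 18532 median UMIs in wtIDH1 against 39361 and 35061 in mIDH1, is limited to the values given above for cells of 10000 or more UMIs.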

How the results depend on the processing

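The count of 1 member called between genotypes in immune classes became 0 with DESeq2 or Leiden clusters, 2 with library totals, no filter on low counts, a gate lead of 1 or crossed replicate numbers, and 0 to 3 without 1 library. The replicate block gave 1; the labels do not say that replicate numbers pair libraries, and same-numbered deviations correlated at -0.11 to 0.04. The count of 23 list calls became 12 with DESeq2, 38 with library totals, 46 without the filter, 41 with a gate lead of 1, 13 with Leiden clusters, 30 with the replicate block, and 8 to 38 without 1 library. The Idh1 call in Nes/Sox2 cells and its difference from macrophage-like cells ranged from 0 to 1 without 1 library. Values that changed sign were Idh1 against other classes in neutrophil-like cells (-0.57 to 0.27 without 1 library, 0.50 with Leiden clusters), Idh2 between genotypes in T-like cells (-0.42 to 1.57 without 1 library), Tet2 in neutrophil-like cells (-0.015 with totals, -0.12 with Leiden clusters), Tet3 against other classes in NK-like (0.0033) and neutrophil-like cells (-0.27) with totals, and Psat1 in monocyte-like cells (-0.12 with Leiden clusters); the cause was not tested. The 26 calls between classes ranged from 21 to 29. Of the values of single genes between classes, 311 kept direction and call, 35 lost the call, 1 gained it and 4 changed sign. Among the 5 tested classes, the one highest in CPM was highest after thinning for 9 of 9 genes at 1000 UMIs and 8 of 9 at 500, where Idh3g was the exception. When the Nes/Sox2 cells were counted too, they were highest for Idh1 and Idh3g after thinning but not in CPM. Neutrophil-like cells with granule genes (1 to 13 cells per library) could not be tested apart. Tet1 was tested in no class with the default filter on low counts, and Idh1 in neutrophil-like cells rests on 1 to 15 UMIs per library.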
